A study of Mus musculus with 6 samples.

Results

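The genes described here encode subunits of the nuclear RNA polymerases and of Mediator in mouse granulocytes kept with or without caffeine while transcription was blocked. Members were the genes whose only annotated symbol for a probe set begins with Polr1, Polr2 or Polr3, or with Med and a digit, each represented by its brightest probe set over 6 arrays. This gave 57 of the 19937 genes on the array, 27 of them polymerase and 30 Mediator genes. The rule uses names and brightness, but this set of genes was proposed with earlier results of these data known.

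Cultured C57BL/6J granulocytes gave the RNA, which was hybridized to Affymetrix Mouse Gene 1.0 ST arrays, 3 arrays from the caffeine-plus and 3 from the caffeine-minus group. Per the labels' protocols, both plates of cells were first kept for 4 hours in 15 mM caffeine, which was then removed by 2 washes. One plate then received 2 µg/ml actinomycin D, which blocks transcription, together with caffeine, and the other plate actinomycin D only, for 4 more hours. That protocol gives caffeine to both groups in its first step, whereas another label of the caffeine-minus arrays says that these cells had none. The study asks which transcripts accumulate when nonsense-mediated decay (NMD), the surveillance of mRNAs with premature stop codons, is inhibited with caffeine. The caffeine dose of the second step, the purity of the cells and whether the arrays came from separate animals or cultures are not stated in the labels, so p-values reflect array-to-array spread only, and that spread may be technical. In bulk RNA of this kind, fewer cells of a type and less RNA per cell cannot be told apart.

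Each nuclear RNA polymerase is a complex of many subunits around a catalytic core formed by its largest pair. RNA polymerase I makes the ribosomal RNA precursor, II makes mRNA precursors and III makes transfer RNA, 5S ribosomal RNA and other short RNAs, and a set of small subunits is common to all of them. Mediator is the large coactivator that carries signals from DNA-bound transcription factors to RNA polymerase II. Its head and middle modules contact the polymerase, its tail binds activators, Med14 joins the modules, and a separable kinase module with Cdk8 or Cdk19 controls its contact with the polymerase.

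The groups were well separated over all probe sets. Arrays of a group correlated at 0.986 to 0.992 (Pearson, across probe sets) and arrays of different groups at 0.959 to 0.965. All 16 listed neutrophil granulocyte marker genes were measured, among them Elane, Mpo, Ltf and Ly6g, and all 16 were lower in the caffeine-plus cells, with summed linear values of 21610 to 22240 against 31100 to 32810. By the test given below, 21.7% of all genes were lower and 16.2% higher. Of the 9968 genes above the median level, 33% were lower and 29.5% higher. Of 9 monocyte and macrophage markers 7 were lower and 1 higher (summed 5155 to 5392 against 6436 to 6806). Of 6 eosinophil, basophil and mast cell markers 3 were lower and 1 higher (5610 to 5659 against 8318 to 9213). Of 4 B cell markers only Cd79b was lower (log2 difference -1.72, summed 249 to 299 against 475 to 487). Cd79a, Pax5 and Ms4a1 differed by 0.16, 0.09 and -0.03. Of 8 T and NK cell markers only Nkg7 was lower (-0.35, summed 751 to 835 against 882 to 958), and 7 did not pass. Of 3 erythroid markers only Alas2 was lower (-0.65, summed 237 to 252 against 287 to 332). The shares of B cell, T and NK cell and erythroid markers that were lower were thus near or below those of the background. The T cell receptor complex genes Cd3d, Cd3e and Cd3g had log2 values of 4.66 to 6.10 in all 6 arrays. Nkg7 of the same list had 8.64 to 9.19, and low values were not read as absence of a cell type. The part of these markers in the differences below was not tested.

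A set of 6 promoters are shown first because their genes carry the results: the pair of largest RNA polymerase II subunits, which went opposite ways, the second largest subunit of RNA polymerase III, the Mediator gene with the highest rise, and a pair from the Mediator kinase module that also went opposite ways. Each is the stretch of 250 bases before the gene's start in RefSeq (build GRCm38.p6), 5′ to 3′ on the gene's strand. Capitals mark 3 motifs, each searched on both strands: the TATA box TATAAA, the ETS-type motif CCGGAAG and the GC box GGGCGG. None of them overlap in these windows. The windows lie at chr11:69758634-69758883 (minus strand, Polr2a), chr5:77310234-77310483 (plus, Polr2b), chr10:84622048-84622297 (plus, Polr3b), chr12:81595009-81595258 (minus, Med6), chrX:101273841-101274090 (plus, Med12) and chr5:118560469-118560718 (plus, Med13l).
Polr2a: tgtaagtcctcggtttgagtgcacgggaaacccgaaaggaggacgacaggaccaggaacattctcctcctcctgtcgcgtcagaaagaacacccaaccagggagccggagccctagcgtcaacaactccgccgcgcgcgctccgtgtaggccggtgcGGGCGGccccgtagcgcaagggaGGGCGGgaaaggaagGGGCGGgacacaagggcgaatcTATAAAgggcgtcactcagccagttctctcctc
Polr2b: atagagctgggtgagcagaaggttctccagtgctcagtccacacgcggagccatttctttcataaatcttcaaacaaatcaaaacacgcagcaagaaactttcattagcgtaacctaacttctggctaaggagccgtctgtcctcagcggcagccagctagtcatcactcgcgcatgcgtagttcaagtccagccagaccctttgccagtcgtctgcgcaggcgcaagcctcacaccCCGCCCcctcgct
Polr3b: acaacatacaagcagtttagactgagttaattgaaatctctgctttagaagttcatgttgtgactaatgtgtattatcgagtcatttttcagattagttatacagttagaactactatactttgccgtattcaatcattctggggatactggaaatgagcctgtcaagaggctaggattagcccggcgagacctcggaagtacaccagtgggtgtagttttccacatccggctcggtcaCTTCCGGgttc
Med6: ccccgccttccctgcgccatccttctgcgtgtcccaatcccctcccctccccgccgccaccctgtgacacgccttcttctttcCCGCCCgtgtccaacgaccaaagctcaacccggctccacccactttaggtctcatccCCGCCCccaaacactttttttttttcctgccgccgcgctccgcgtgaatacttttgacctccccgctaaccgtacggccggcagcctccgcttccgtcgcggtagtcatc
Med12: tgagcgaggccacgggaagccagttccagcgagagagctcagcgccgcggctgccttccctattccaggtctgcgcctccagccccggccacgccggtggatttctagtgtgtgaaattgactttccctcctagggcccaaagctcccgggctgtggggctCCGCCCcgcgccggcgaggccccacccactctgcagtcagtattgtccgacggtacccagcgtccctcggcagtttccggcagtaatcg
Med13l: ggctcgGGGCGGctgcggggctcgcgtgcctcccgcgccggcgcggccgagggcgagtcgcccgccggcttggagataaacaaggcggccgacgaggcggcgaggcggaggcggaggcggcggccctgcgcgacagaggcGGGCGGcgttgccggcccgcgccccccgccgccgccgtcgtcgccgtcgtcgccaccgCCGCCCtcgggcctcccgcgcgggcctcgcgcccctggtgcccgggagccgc
Polr2a had TATAAA at 33 to 28 bases before its start and GGGCGG at 3 places, while Polr2b had no TATAAA and 1 GC box. Polr3b had the ETS-type motif at 11 to 5 bases before its start. Of the 57 members 48 have at least 1 such window. A gene with several windows counted as holding a motif if any of them did. There were 32851 windows for 27025 genes. Of these 48, 31 (64.6%) held the GC box, 11 (22.9%) the ETS-type motif and 5 (10.4%) TATAAA, against 35.4%, 7.83% and 14.3% of all 27025 genes with a window. That background includes genes that were dim or not measured here, whereas 56 of the 57 members were brighter than the median gene. Motif shares over the brighter genes were not taken, so these differences cannot be read as traits of the complexes. Polymerase and Mediator genes had much the same shares, 14 of 22 and 17 of 26 for the GC box and 5 of 22 and 6 of 26 for the ETS-type motif. The GC box was in 13 of 19 members that were higher in the caffeine-plus group and in 8 of 13 that were lower. For the ETS-type motif these were 5 of 19 and 2 of 13. These are matches of letters, not measured binding sites.

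Differences are given as log2 values of the caffeine-plus group less those of the caffeine-minus group, each with its standard error and with n = 3 arrays per group. They were tested with limma over all 19937 genes, p-values were adjusted by Benjamini and Hochberg, and the threshold was 0.05. Levels are the deposited log2 values, and levels of different genes are not compared because probe sets differ in brightness. Throughout, a rise or fall means a higher or lower value in the caffeine-plus than in the caffeine-minus group. It does not mean a change over time. No array was taken before transcription was blocked, so making of mRNA against its loss was not tested.

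Over both complexes, subunit mRNAs split rather than moving together. Of the polymerase genes, 9 of 27 rose, another 9 fell and 9 stayed below the threshold, where 16.2% of all genes rose and 21.7% fell. Among the 30 Mediator genes 12 rose, 6 fell and 12 stayed below it. In either direction 18 of 27 polymerase genes (66.7%) and 18 of 30 Mediator genes (60%) passed, against 37.9% of all genes. Since 56 of the 57 members were brighter than the median gene, and bright genes pass more often, the closer background is the 9968 genes above the median level, of which 29.5% rose, 33% fell and 62.6% passed in either direction. Against that, the polymerase shares of 33.3% in each direction are near the background, while 40% of Mediator genes rose and 20% fell. Polymerase and Mediator were compared by these counts and their medians only, and the difference between them was not tested. Mediator also holds 9 of the 11 members that span over 40 kb, and gene length was not separated from the complex. The median log2 difference was -0.022 for polymerase genes and 0.10 for Mediator genes, against -0.037 for all genes and -0.047 for the brighter ones. With each array centred on its median the polymerase median was 0.037, so its sign depends on the scaling, and that of Mediator was 0.16. Without caffeine-plus array 1 the count of Mediator falls was 3 in place of 6, as Med16, Med18 and Med19 lost their calls.

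**Figure D1:**
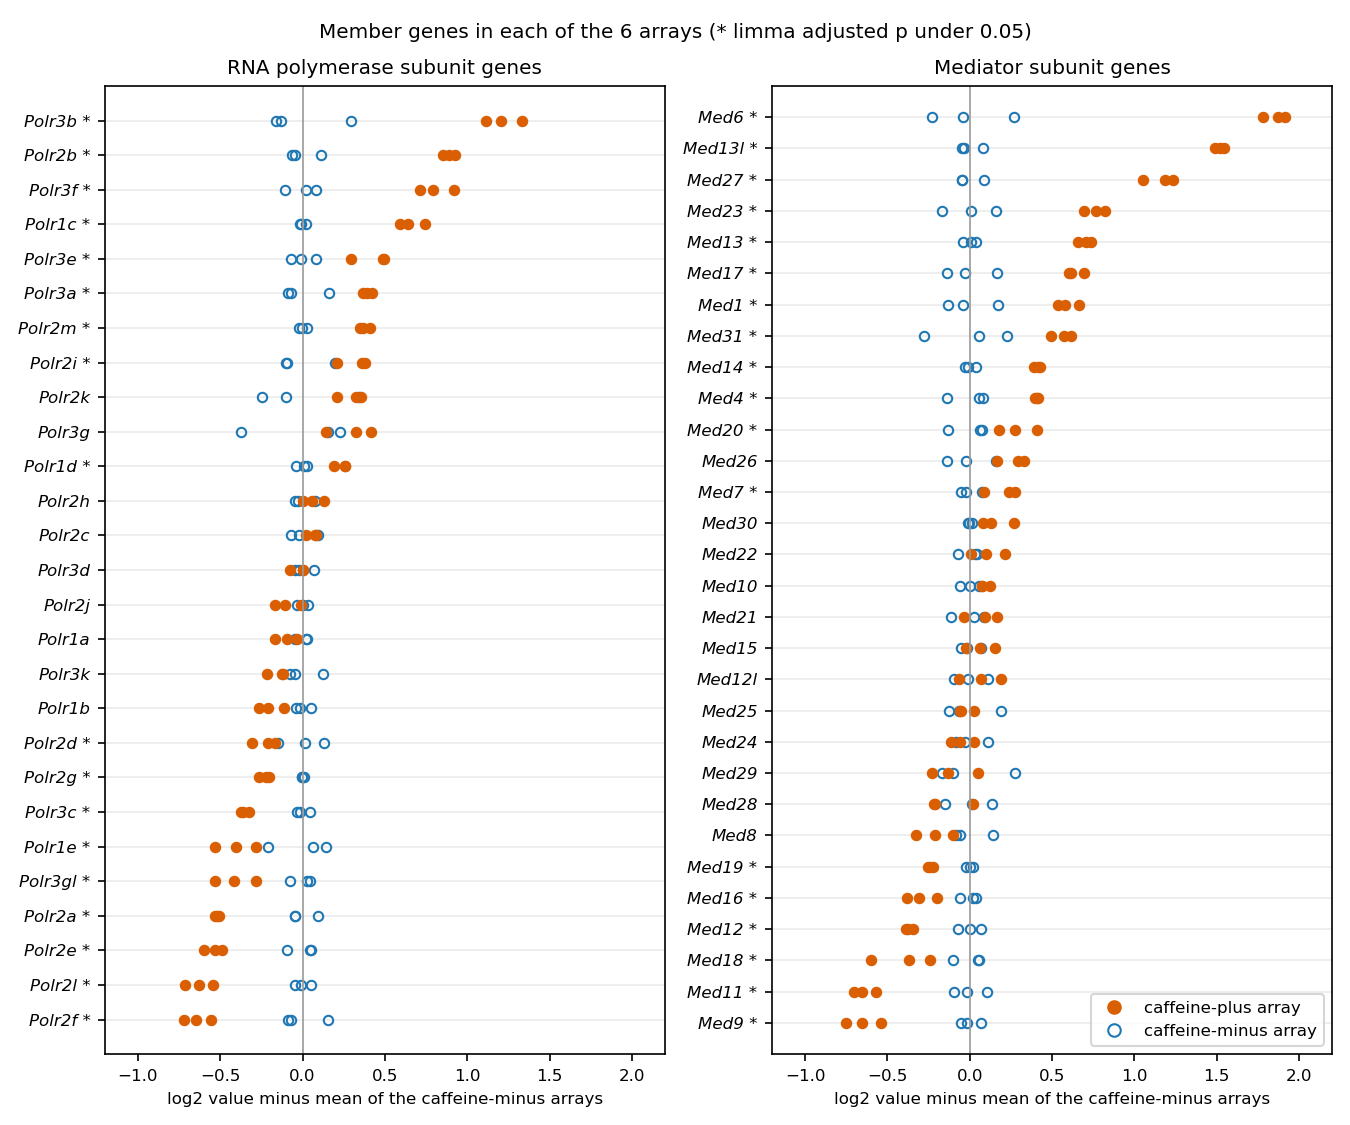
Log2 value of each polymerase gene (left) and Mediator gene (right) in each array, minus the mean of the 3 caffeine-minus arrays; filled points are caffeine-plus and open points caffeine-minus arrays, and an asterisk marks limma adjusted p under 0.05. Of the 27 polymerase genes 9 lie to the right and 9 to the left with an asterisk, of the 30 Mediator genes 12 and 6, and the rises reach further (up to 1.86) than the falls (down to -0.65).

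The groups did not overlap in 20 of 27 polymerase genes (74.1%) and 22 of 30 Mediator genes (73.3%), against 45.9% of all genes and 70.2% of the brighter ones. Rises were the larger changes among the members. They ran from 1.18-fold to 2.33-fold in polymerase genes and from 1.15-fold to 3.62-fold in Mediator genes, and the falls from 1.17-fold to 1.56-fold and from 1.18-fold to 1.57-fold. A change of 2-fold or more was seen in 4 members, all rises: Med6, Med13l, Med27 and Polr3b. Of the 9968 genes above the median level, 502 passed as higher and 522 as lower by 2-fold or more. Log2 differences of those brighter genes ran from -4.12 to 2.77.

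**Figure D2:**
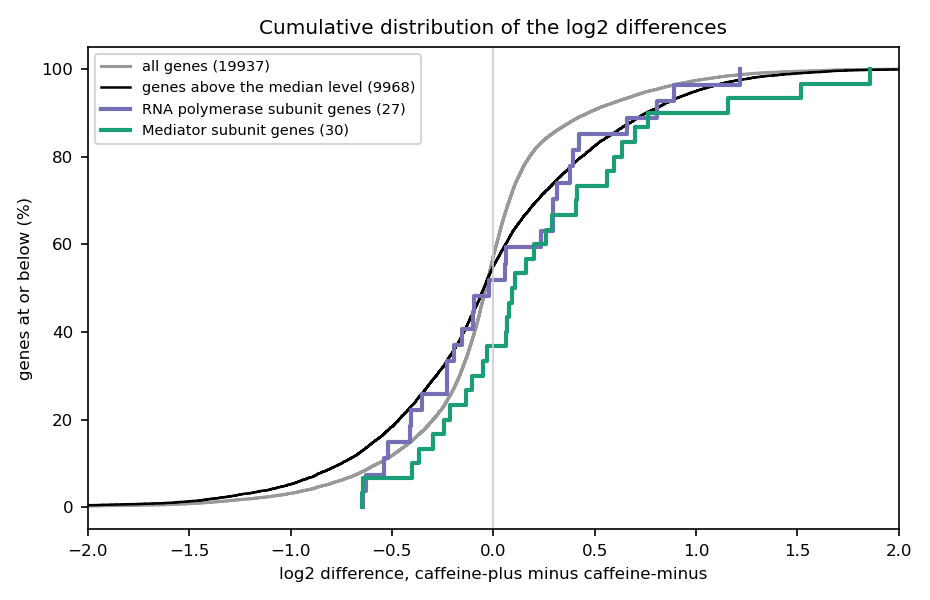
Cumulative share of genes (vertical axis, %) at or below a log2 difference (horizontal axis, caffeine-plus minus caffeine-minus) for the 27 polymerase genes, the 30 Mediator genes, all 19937 genes and the 9968 above the median level. The polymerase line runs close to that of the brighter genes, with medians of -0.022 and -0.047, and the Mediator line lies to its right with a median of 0.10.

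The largest pair of RNA polymerase II subunits changed in opposite directions. Polr2a, the largest subunit, whose repeat-rich C-terminal tail is phosphorylated during transcription, had log2 values of 10.94, 10.96 and 10.93 in the caffeine-plus arrays and 11.55, 11.42 and 11.42 in the caffeine-minus arrays. All 3 caffeine-plus arrays lay below all caffeine-minus arrays, and the fall was 1.43-fold (log2 difference -0.52 ± 0.05, limma adjusted p = 7.3e-07). Polr2b, the second largest subunit, which forms the active site with Polr2a, had values of 10.84, 10.88 and 10.80 against 9.90, 10.06 and 9.89. It was higher in every caffeine-plus array, by 1.85-fold (0.89 ± 0.06, limma adjusted p = 1.3e-08). Each gene has a single probe set in the annotation, and neither call was lost under any of the 16 alternative settings run.

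The smaller subunits found only in RNA polymerase II changed little. Polr2g, which with Polr2d forms the stalk, fell by 0.23 on the log2 scale, with 10.15, 10.19 and 10.21 against a narrow 10.41, 10.42 and 10.41. Polr2d fell by 0.23 as well, at the edge of the threshold (limma adjusted p = 0.049). Its call was lost in 9 of 16 alternative settings, among them without caffeine-plus array 1 (0.10), 2 (0.071) or 3 (0.17) and without caffeine-minus array 1 (0.098) or 2 (0.21). Polr2i, a zinc-binding subunit linked to transcription fidelity, was 1.25-fold higher (limma adjusted p = 0.027), with 7.13, 7.10 and 6.95 against 6.94, 6.64 and 6.65, so that its groups all but touched. That call was lost in 5 of 16 settings, among them without caffeine-plus array 1 (0.11) or 2 (0.091) and without caffeine-minus array 2 (0.10) or 3 (0.077). Polr2j (-0.09 ± 0.07) and Polr2c (0.06 ± 0.08), partners in the assembly core, did not pass. Polr2m, a protein that binds the finished enzyme and makes it depend on Mediator, is not a core subunit. It was 1.30-fold higher, with 10.64, 10.70 and 10.66 against 10.31, 10.28 and 10.27.

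Where 33% of the genes above the median level fell and 29.5% rose, 3 of the 5 small subunits that all nuclear polymerases contain fell and none rose. Polr2f was 1.56-fold lower, with log2 values of 6.72, 6.79 and 6.88 against 7.60, 7.35 and 7.37 (log2 difference -0.64 ± 0.10, limma adjusted p = 6.0e-05). Polr2l was 1.55-fold lower, with 9.75, 9.58 and 9.67 against 10.35, 10.29 and 10.25. Polr2e was 1.45-fold lower, with 7.27, 7.31 and 7.20 against 7.85, 7.70 and 7.85. In each of these genes the groups stood apart by more than the spread within either. Polr2h differed by 0.06 ± 0.06 and its second probe set by 0.10 ± 0.10, neither past the threshold. Polr2k differed by 0.30 ± 0.13 (limma adjusted p = 0.079) and passed in 5 of 16 alternative settings, among them with arrays centred on their medians (0.039), after quantile normalization (0.032) and without caffeine-minus array 1 (0.0015), whose value of 7.73 lay above the 7.29 and 7.14 of the others. A brighter probe set shared between Polr2k and a predicted gene, which the rule left out, differed by -0.28 ± 0.19.

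RNA polymerase III had its largest pair higher. Polr3b, the second largest subunit, was 2.33-fold higher, with log2 values of 9.01, 8.88 and 8.79 against 7.55, 7.98 and 7.51 (log2 difference 1.22 ± 0.11, limma adjusted p = 2.5e-07). Polr3a, the catalytic partner, was 1.31-fold higher, with 8.56, 8.59 and 8.62 against 8.36, 8.11 and 8.13 (0.39 ± 0.08, limma adjusted p = 0.0013). The caffeine-plus arrays were above all caffeine-minus arrays for both. Of the genes above the median level 29.5% rose and 33% fell. Near those shares, 2 (28.6%) of the 7 other measured subunits specific to this enzyme rose, 2 (28.6%) fell and 3 did not pass.

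Among these, the subunits of the initiation subcomplex, Polr3c, Polr3f and Polr3g or its paralog Polr3gl, did not move together. Polr3f was 1.75-fold higher, with 8.92, 8.79 and 8.71 against 7.90, 8.08 and 8.02. Polr3c was 1.28-fold lower, with 9.653, 9.641 and 9.687 against 10.060, 9.978 and 9.999. The paralogs Polr3g and Polr3gl can replace each other in the enzyme, and Polr3gl is known as the form of differentiated cells. Polr3gl was 1.33-fold lower, with 7.84, 7.97 and 7.72 against 8.28, 8.30 and 8.17 (limma adjusted p = 0.0012). Polr3g gave 8.11, 8.38 and 8.29 against 8.19, 8.12 and 7.59, overlapping groups that differed by 0.29 ± 0.13 (limma adjusted p = 0.097). It passed in 2 of 16 alternative settings, among them without caffeine-minus array 1 (0.029). Whether the paralogs differ from each other was not tested. Polr3e, which pairs with Polr3d in the enzyme, was higher by 0.43 ± 0.08 on the log2 scale at its brightest probe set and by 0.38 ± 0.07 at its second, while Polr3d (-0.02 ± 0.09) and the RNA-cleaving subunit Polr3k (-0.15 ± 0.07) did not pass.

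RNA polymerase I showed no change past the threshold in its largest pair. Polr1a, the largest subunit, gave 7.56, 7.70 and 7.64 against 7.68, 7.75 and 7.76 (log2 difference -0.10 ± 0.08, limma adjusted p = 0.43), and Polr1b differed by -0.20 ± 0.09 (limma adjusted p = 0.11). The assembly partners Polr1c and Polr1d, which RNA polymerases I and III share, both rose at their brightest probe sets. For Polr1d the direction depends on the probe set, as given below. Polr1c was 1.58-fold higher, with 10.16, 10.27 and 10.11 against 9.54, 9.51 and 9.51 (0.66 ± 0.06, limma adjusted p = 4.0e-07). Polr1e, a peripheral subunit that helps the enzyme to initiate, was 1.33-fold lower, with 7.34, 7.09 and 7.22 against 7.77, 7.41 and 7.69.

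Polr1d is the only member with several probe sets whose probe sets passed in opposite directions. Its brightest, 10527559, gave 12.05, 12.12 and 12.12 against 11.87, 11.83 and 11.89, a rise of 0.23 ± 0.04. The dimmer 10503911 fell by 0.25 on the log2 scale, with a standard error of 0.08 (limma adjusted p = 0.043 in a fit of every probe set). The mean of both probe sets differed by -0.0090 (limma adjusted p = 0.94), so the direction given for Polr1d depends on the probe set. In the other 4 members with more than 1 probe set, Med4, Polr2c, Polr2h and Polr3e, the probe sets had the same sign and the same call.

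**Figure D3:**
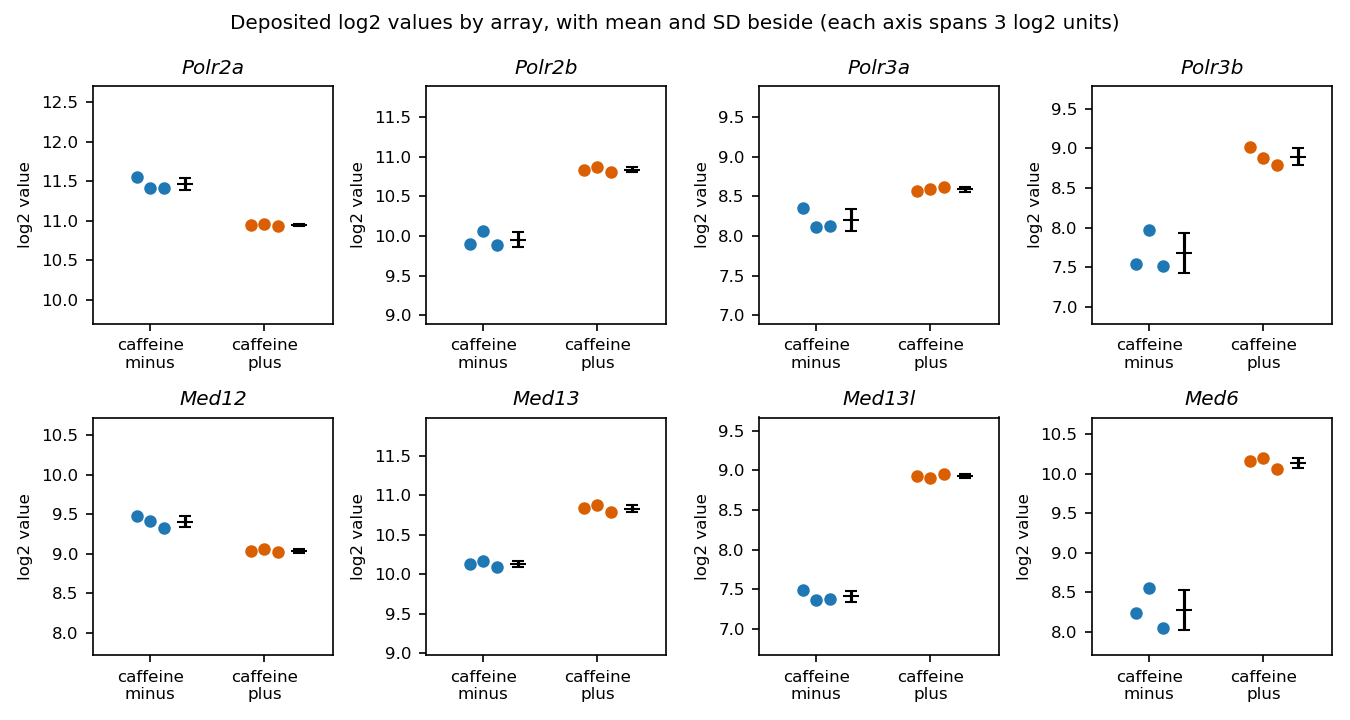
Deposited log2 value (vertical axis, 3 log2 units in each panel) of 8 genes in the 3 caffeine-minus (blue) and 3 caffeine-plus (orange) arrays, with the mean and SD of each group in black. Polr2a and Med12 are lower with caffeine by 0.52 and 0.37, and Polr2b, Polr3a, Polr3b, Med13, Med13l and Med6 are higher by 0.39 to 1.86, with no overlap between groups.

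In Mediator, the head module held the highest rise of all members. Med6, a head subunit that contacts RNA polymerase II, was 3.62-fold higher, with log2 values of 10.15, 10.19 and 10.06 against 8.24, 8.55 and 8.05 (log2 difference 1.86 ± 0.10, limma adjusted p = 1.1e-09). The lowest caffeine-plus array was 10.06 and the highest caffeine-minus array 8.55, and 99.9% of all genes had a lower difference. Med17, the scaffold of the head, was 1.56-fold higher, with 8.452, 8.531 and 8.438 against 7.807, 8.004 and 7.700. Med11 and Med18 of the head went the other way. Med11, a small partner of Med17 and Med22, was 1.56-fold lower, with 7.19, 7.28 and 7.15 against 7.84, 7.76 and 7.96 (-0.64 ± 0.09, limma adjusted p = 2.3e-05). Med18, which pairs with Med20 as a movable jaw, was 1.32-fold lower, a call lost without caffeine-plus array 1 (0.072). Its partner Med20 was 1.22-fold higher (limma adjusted p = 0.021), a call lost in 4 of 16 settings, among them without caffeine-plus array 1 (0.13) or 2 (0.057) and without caffeine-minus array 1 (0.088). A probe set that names both Med20 and Usp49, outside the rule, was 1.44-fold lower (limma adjusted p = 0.028 in a fit of every probe set). Med8 (-0.21 ± 0.09) and Med22 (0.11 ± 0.09) did not pass.

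The backbone subunit was higher, and the middle module was mixed. Med14, which holds the modules together, was 1.33-fold higher, with 10.92, 10.91 and 10.89 against 10.54, 10.49 and 10.47 (log2 difference 0.41 ± 0.05, limma adjusted p = 8.5e-06). Of the 9 middle subunits 4 (44.4%) rose, 2 (22.2%) fell and 3 did not pass, where 29.5% of the genes above the median level rose and 33% fell. Med1, the subunit through which nuclear receptors bind Mediator, was 1.51-fold higher, with 9.99, 10.12 and 10.04 against 9.63, 9.42 and 9.33. Med31, a small conserved subunit, was 1.48-fold higher, with 8.83, 8.87 and 8.74 against 8.48, 8.31 and 7.97. The groups stood apart in all of these genes, though the caffeine-minus arrays of Med31 were spread over more than the caffeine-plus arrays. Med4 was 1.33-fold higher, and a second probe set gave 1.36-fold.

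The fall in the middle module was led by Med9, a partner of Med4, which was 1.57-fold lower with 7.09, 6.88 and 6.98 against 7.58, 7.61 and 7.70 (log2 difference -0.65 ± 0.09, limma adjusted p = 2.8e-05). Med19, another middle subunit, was 1.18-fold lower, with 8.42, 8.43 and 8.45 against 8.65, 8.67 and 8.69. Those groups were tight and apart, but the call was lost without caffeine-plus array 1 (0.062) or 2 (0.054) and with arrays centred on their medians (0.080). Med7 was 1.15-fold higher (limma adjusted p = 0.036), a call lost in 7 of 16 alternative settings, among them without caffeine-plus array 2 (0.14) or 3 (0.16), without caffeine-minus array 2 (0.11) and after quantile normalization (0.31). Med26, which recruits elongation factors, differed by 0.26 ± 0.10 (limma adjusted p = 0.054) and passed in 8 of 16 alternative settings, among them without caffeine-plus array 3 (0.044) or caffeine-minus array 3 (0.012). Med10 and Med21 differed by 0.09 ± 0.06 and 0.08 ± 0.08 and did not pass.

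Of the 5 tail subunits, which bind activators, 1 rose, 1 fell and 3 did not pass. Of the genes above the median level 29.5% rose and 33% fell. The rise was in Med23, the tail subunit known as a target of MAP kinase signalling through Elk1. It was 1.70-fold higher, with 8.91, 8.97 and 8.84 against 8.15, 8.30 and 7.97 (log2 difference 0.76 ± 0.09, limma adjusted p = 3.5e-06). Med16 was 1.23-fold lower (limma adjusted p = 0.021), lost without caffeine-plus array 1 (0.073) or 2 (0.10) and without caffeine-minus array 1 (0.057) or 3 (0.051). Med15, Med24 and Med25 differed by -0.05 to 0.06. Of the animal subunits Med27 to Med30 near the junction of head and tail, Med27 was 2.23-fold higher, with 8.55, 8.59 and 8.41 against 7.31, 7.32 and 7.45 (1.16 ± 0.09, limma adjusted p = 2.7e-08). Its neighbours Med28 (-0.13 ± 0.09), Med29 (-0.10 ± 0.12) and Med30 (0.16 ± 0.09) did not pass.

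The kinase module split. Med13, which ties the module to the rest of Mediator, was 1.62-fold higher, with 10.84, 10.87 and 10.79 against 10.14, 10.17 and 10.09 (log2 difference 0.70 ± 0.06, limma adjusted p = 5.2e-08). Its paralog Med13l was 2.86-fold higher, with 8.93, 8.90 and 8.95 against 7.49, 7.36 and 7.38 (1.52 ± 0.08, limma adjusted p = 6.8e-10). Med12, which activates the kinase, was 1.29-fold lower, with 9.03, 9.06 and 9.02 against 9.47, 9.41 and 9.33 (-0.37 ± 0.07, limma adjusted p = 0.00037). For each of these 3 genes the groups did not overlap. The paralog Med12l gave 7.30, 7.42 and 7.17 against 7.34, 7.22 and 7.13, overlapping groups that differed by 0.06 ± 0.10. The reference span of Med12l also holds the purine receptor genes P2ry12, P2ry13 and P2ry14, and P2ry14 and P2ry13 differed by -0.80 and -0.58. The module's kinase and cyclin genes do not carry the Med symbol. The kinase gene Cdk8 was 3.11-fold higher (1.64 ± 0.08) and its paralog Cdk19 1.68-fold higher, while the cyclin gene Ccnc differed by -0.13 ± 0.10 (limma adjusted p = 0.37) and passed as lower without caffeine-minus array 3 (0.0094) and after quantile normalization (0.048).

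Other parts of the transcription machinery were read from lists of partner genes. Of 26 measured elongation factors of RNA polymerase II 17 (65.4%) rose and 3 (11.5%) fell, with a median log2 difference of 0.43, beside 29.5% and 33% of the genes above the median level. Aff1, a scaffold of the super elongation complex, was 2.79-fold higher, Paf1, the namesake of the PAF complex, 1.97-fold and the C-terminal domain kinase Cdk13 1.84-fold. Of 17 general transcription factor genes 7 (41.2%) rose and 7 (41.2%) fell. Among them were Gtf2h1 of TFIIH (2.21-fold higher), Gtf2b (2.04-fold higher) and Gtf2a1 of TFIIA (1.93-fold lower). Of 14 TFIID subunit genes 5 (35.7%) rose and 4 (28.6%) fell, or 7 fell without caffeine-minus array 3. With all arrays, the TFIID shares were near those of the genes above the median level. The TFIID falls Taf10 (2.63-fold), Taf12 (2.42-fold) and Taf6 (2.07-fold) were each larger than any polymerase or Mediator fall.

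Where 29.5% of the genes above the median level rose and 33% fell, 3 of 7 factor genes (42.9%) of RNA polymerase I rose and none fell. They were Taf1b, a subunit of the promoter factor SL1 (3.57-fold), the terminator Ttf1 (2.24-fold) and the initiation factor Rrn3 (1.17-fold). The Rrn3 call was lost in 5 of 16 settings, among them after quantile normalization (0.16), without caffeine-plus array 1 (0.12) or 2 (0.065) and without caffeine-minus array 2 (0.051). Of 15 RNA polymerase III factor genes 7 (46.7%) rose and 1 (6.67%) fell, or 2 without caffeine-minus array 3, with a median of 0.15. Bdp1, a subunit of TFIIIB, was 3.10-fold higher, Maf1, the repressor of that enzyme, 2.02-fold higher, and Gtf3c6 of TFIIIC 2.39-fold lower. Of 9 genes for polymerase assembly and C-terminal domain phosphatases 6 (66.7%) rose and 3 (33.3%) fell. The assembly factors Rpap3 and Gpn3 were 2.29-fold and 1.99-fold higher and the phosphatase Ssu72 was 1.99-fold lower. Of 5 genes that encode polymerase subunits under other symbols none rose and 2 (40%) fell. These 2 were the RNA polymerase I subunit genes Znrd1 (1.47-fold) and Cd3eap (1.32-fold). The Cd3eap call was lost without caffeine-plus array 1 (0.052). Crcp of RNA polymerase III, Twistnb of RNA polymerase I and the mitochondrial polymerase Polrmt did not pass.

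**Figure D4:**
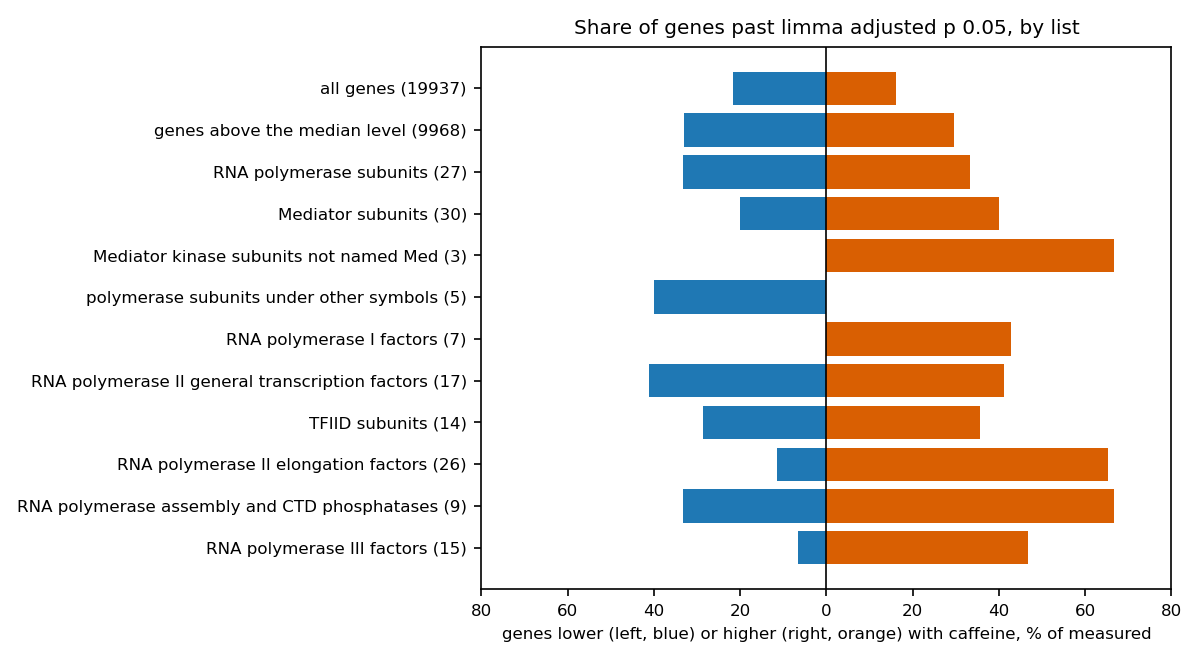
Share of the measured genes of each list (%, number of genes in brackets) that were higher (orange, right) or lower (blue, left) with caffeine at limma adjusted p under 0.05. Polymerase subunits show equal shares of 33.3%, Mediator subunits 40% higher and 20% lower, and the 26 elongation factors 65.4% higher and 11.5% lower, beside 29.5% and 33% of genes above the median level.

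Long genes among the members mostly rose, as long bright genes on the array did more often than they fell. Of the 11 members whose reference span exceeds 40 kb (Med12l, Med13l, Med27, Polr3b, Med13, Med14, Med15, Polr1a, Med26, Med23 and Med1) 7 rose and none fell, with a median log2 difference of 0.59. Of these 11, 9 are Mediator and 2 polymerase genes. Among all 5637 genes of such length 26.7% rose and 12.2% fell, and of 2880 that were also above the median level 48.7% rose and 16.3% fell. Of the 9 members spanning up to 5 kb 3 rose and 3 fell, where 5.25% of all 4400 such genes rose and 21% fell. Of the 15 members spanning 5 to 10 kb 3 rose and 4 fell, where 7.8% of all 2598 such genes rose and 30% fell. Of the 12 members spanning 10 to 20 kb 3 rose and 6 fell, where 13.6% of all 3564 genes of that span rose and 28.8% fell. Of the 10 members spanning 20 to 40 kb 5 rose and 2 fell, where 21.9% of all 3655 such genes rose and 24.6% fell. From the shortest of these spans to the longest, the members' median log2 differences were 0.063, -0.10, -0.16 and 0.26. For spans up to 40 kb, shares over the brighter genes alone were not taken. Across the 57 members the log2 difference and the log10 span had a Pearson r of 0.45 (Spearman 0.38), across 19854 genes 0.16 (Spearman 0.19), and across the 9943 of these above the median level 0.29 (Spearman 0.36). The members' rank correlation was thus close to that of the brighter genes. Among the 46 members of up to 40 kb, a narrower range of spans, r was 0.21 (Spearman 0.15). Within the complexes r was 0.50 (Spearman 0.46) for Mediator and 0.31 (Spearman 0.23) for polymerase genes. Up to 40 kb it was 0.27 (Spearman 0.11) and 0.17 (Spearman 0.17). Med6, with a span of 21.5 kb, had the highest rise of all, and Med12l, the longest at 313 kb, did not pass. Genes are not independent replicates and no test was made. Length of the mRNA and of the introns was not separated.

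**Figure D5:**
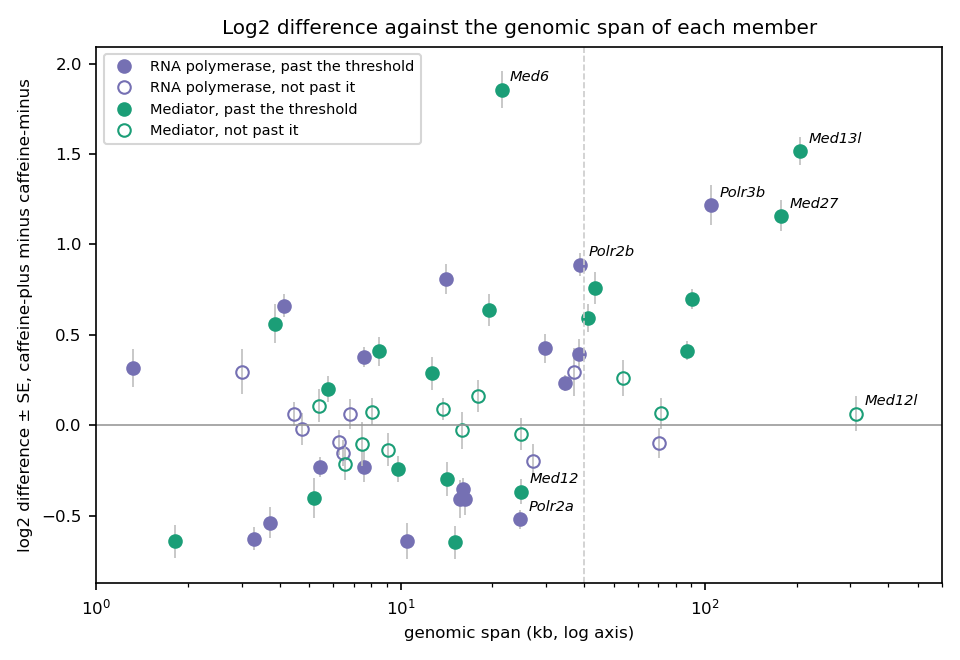
Log2 difference with its standard error (vertical axis, caffeine-plus minus caffeine-minus) against the genomic span of each member (horizontal log axis, kb); filled points passed limma adjusted p under 0.05 and the dashed line marks 40 kb. To the right of the line 7 of 11 members are filled and above 0 and none is filled below 0, while the polymerase and Mediator falls all lie to its left.

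Overlap with other genes limits some of these readings. In the reference annotation 26 of the 57 members overlap another gene, 16 of the 36 that passed among them, and the array annotation used here gives no probe positions. Med19 overlaps Tmx2, which differed by -0.53, and Med13 overlaps the noncoding Brip1os, which differed by -0.77 while Med13 rose. Polr2b overlaps Igfbp7 (-0.13) and Med9 overlaps Rasd1 (0.12), neither of which passed.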

How the data were processed

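The table deposited by the authors gives 34760 probe sets on 6 arrays. The values were taken as log2 values as deposited by the authors and as already normalized, since they run from 1.90 to 13.98 with near-equal medians (6.49 to 6.60), but no header states the unit (method of summarization: not given in the sources used here). These values are relative to the total RNA of an array. Per the labels' protocols, 300 ng of Trizol-extracted RNA was turned into biotinylated cDNA. Precision is limited by the number of arrays.

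Gene names came from the platform annotation (21640 with 1 symbol, 1321 with several, 11799 not listed); all 57 members matched the RefSeq gene table of GRCm38.p6, as did 19854 of 19937 genes. The annotation gives Polr1f, Polr1g and Polr1h under their older symbols Twistnb, Cd3eap and Znrd1. The groups were compared by limma 3.58.1 under R 4.3.3, using lmFit and then eBayes (with an intensity trend, two-sided, Benjamini-Hochberg over 19937 genes). The fit was checked on simulated data in which 200 of the 19937 genes were changed. It recovered 95% of log2 changes of 1 and 53% of those of 0.5, and 3.27% of its calls were false. A gene that did not pass may thus still have changed. Far fewer genes were changed there than the 37.9% that passed in the data. Protein lengths were not used here, so only genomic span was set against the differences.

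Members, partner lists and marker lists were chosen with earlier results of these data known. Named genes were up to 8 rises and 8 falls in each complex, a fixed set of core subunits and paralogs, members with several probe sets and up to 3 genes of each partner list with the smallest p; other members are given as values, and the marker, overlapping and receptor genes were named after their values were seen. The alternatives were a block for replicate number, normalization by quantiles, arrays centred on their medians, 2 filters on dim genes (above the median, or above a log2 mean of 5), averaged probe sets, a fit of all probe sets, an eBayes step that is robust or has no trend, array weights, and each array left out in turn.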

Additional observations from a re-analysis of the deposited data

How the results depend on the processing

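Of 36 members that passed, 28 kept direction and call under every alternative that gave a value, 7 lost the call in at least 1, and Polr1d reversed to -0.0090 with the mean of its probe sets. Of 21 that did not pass, 7 passed in at least 1. With arrays left out in turn, Mediator falls ran from 3 to 6, Mediator rises from 10 to 13, polymerase rises from 8 to 11 and polymerase falls from 8 to 9. The median log2 difference ran from -0.043 to 0.012 for polymerase and from 0.083 to 0.14 for Mediator genes. Centring on array medians raised the medians to 0.037 and 0.16, as it moved that of all genes by 0.059, so the sign of the polymerase median changed.

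Same-numbered arrays deviated from their group means with r = -0.028, 0.19 and 0.29, so the numbers were not taken to pair the arrays. With the replicate number as a block, 3388 genes were higher and 4660 lower, with 11 and 9 polymerase and 13 and 7 Mediator genes, and 4 of 6 arrays correlated best with their own number. Scanner signal over background was not used here, so low values such as those of Med18 were not read as absence.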
